A study of Mus musculus with 10 samples.

Results

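Cultured brown adipocytes at day 7 of differentiation were compared with brown adipose tissue of mice, using 1 array of the culture and 2 arrays of the tissue out of 10 arrays in the series. The tissue came from wild-type, chow-fed mice given intraperitoneal saline each day for 7 days, as 2 samples labelled biological replicates; pooling was not stated. The culture was labelled wild type. Its origin (primary cells or a line), passage, strain and sex were not given in the sources used here, nor were the age, strain and sex of the mice. The other 7 arrays were culture days 0, 3 and 5 (1 array each), saline white fat (2 arrays) and white fat of mice given the β3-adrenergic agonist labelled CL, at 1 mg/kg each day for 7 days (2 arrays). Total RNA was labelled with Cy3 and hybridised to a 1-colour mouse lncRNA microarray whose probes target long non-coding RNAs and protein-coding transcripts.

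Brown adipose tissue produces heat by burning fatty acids and glucose in mitochondria that are uncoupled by UCP1, and its blood vessels, sympathetic nerves, immune cells and fibroblasts contribute RNA to any whole-tissue sample. Brown preadipocytes in culture can be differentiated into lipid-filled adipocytes without those other cells or a nerve supply. Long non-coding RNAs are transcripts without a long open reading frame, many of which are restricted to a tissue or stage. In such bulk samples, fewer cells of a type and less RNA per cell cannot be told apart.

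All values are log2 signals relative to the 75th percentile of their array, so 0 is a fairly bright probe, and levels of different probes cannot be set against each other. The scanner software called 70.8% of probes well above background on the day 7 array, against 55.2% and 67.8% on the brown fat arrays. Negative control spots received the same call for 29.8% on the day 7 array and for 13.8% and 23.8% on the brown fat arrays, so a probe just past that call may carry no signal of its own. All culture arrays belonged to 1 scan and all tissue arrays to another, so scan and sample type cannot be told apart. Of 47 markers of brown adipocytes, other adipocytes, fibroblasts, immune, vascular, nerve and muscle cells, 0 could be matched to a named probe, so the labels could not be checked against marker genes. Across the probes compared, the day 7 array correlated at r = 0.892 and 0.900 with the brown fat arrays, at 0.947, 0.977 and 0.974 with culture days 0, 3 and 5, and the brown fat arrays at 0.980 with each other. These correlations share probe brightness and, within the culture, the scan.

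A probe was compared when it was well above background at day 7 or on both brown fat arrays, which held for 43240 of 59709 probes. It was counted as lower or higher when the day 7 level lay at least 4-fold below or above each brown fat array. With 1 culture array this count has no test and no measure of the spread between cultures. By this rule 1675 probes (3.87%) were lower and 1528 (3.53%) higher in the culture, and 40037 were neither. For scale, the brown fat arrays differed from each other by 4-fold at 338 of the same probes (0.782%). The median difference over all compared probes was 0.12 on the log2 scale, with an interquartile range from -0.47 to 0.74. When the 75th percentile was taken only over probes detected on all 10 arrays, the split became 2189 lower and 1129 higher, and the median difference -0.15, so the balance of the 2 directions depends on the scaling. A limma fit over all 10 arrays, which assumes that the lone day 7 array varies like the tissue pairs, called 2007 of 43148 probes lower (4.65%) and 2141 higher (4.96%) at a Benjamini-Hochberg adjusted p under 0.05, 2816 of them shared with the fold rule.

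**Figure D1:**
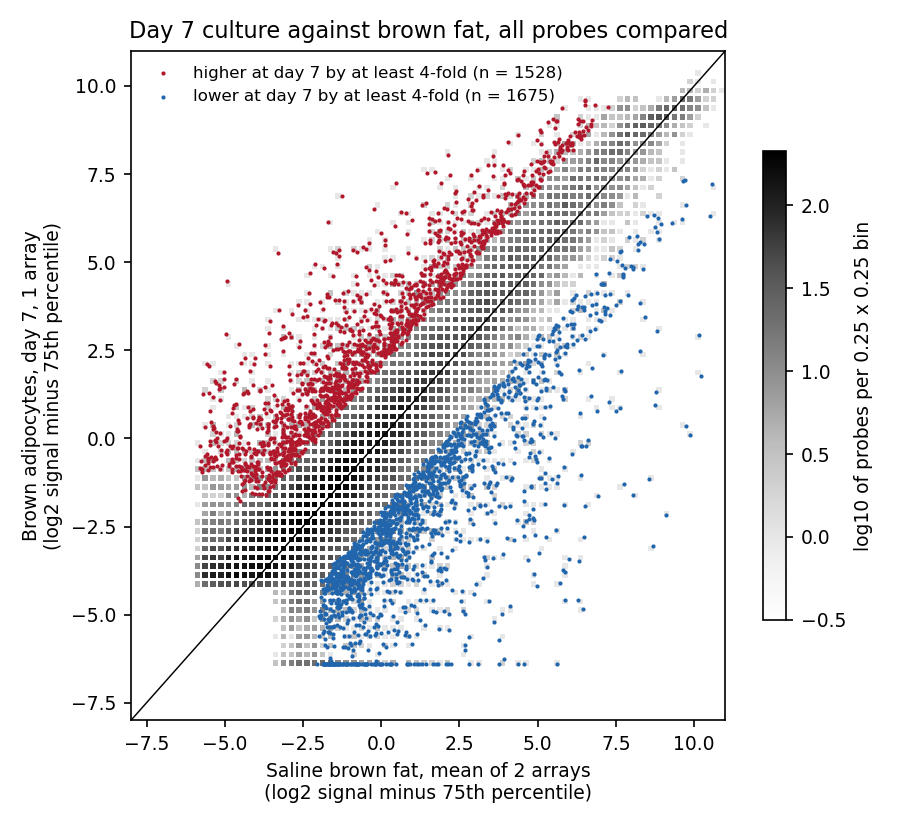
Day 7 level (1 array, vertical) against the mean of the 2 brown fat arrays (horizontal), both as log2 signal minus the array's 75th percentile; grey squares count all compared probes, and coloured points are the 1675 lower and 1528 higher probes. Most probes follow the diagonal line of equal level, and the called probes leave it over the whole range of brightness.

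Among probes seen in brown fat, 980 of 32315 that were well above background on both tissue arrays were not so at day 7 (3.03%). For 375 of them the brown fat signal was at least 4-fold above the day 7 limit. That limit was the higher of the probe's own value and the dimmest detected signal of the array. In the other direction, 4590 of 42260 probes well above background at day 7 were so on neither brown fat array (10.9%), but only 137 of them cleared the 4-fold margin. Brown fat replicate 1 had the lowest share of detected probes of all 10 arrays, which bears on this second count. Of the 375, 178 (47.5%) were well above background on none of the day 0, 3 and 5 arrays, against 1.5% of all compared probes. The 375 were chosen as undetected at day 7, while 97.7% of all compared probes were detected there. A gap on the other culture arrays was therefore partly fixed by that choice. Of these 375, 336 (89.6%) were detected on both saline white fat arrays, near the 92.2% of all compared probes. Of the 137, 120 (87.6%) were detected on all 3 other culture arrays and 25 (18.2%) on neither saline white fat array, against 88.4% and 3.55% of all compared probes. The 137 were in turn chosen as undetected on both brown fat arrays, which bears on their share in white fat.

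Among the probes with a single RefSeq gene symbol, 27 of 101 compared were lower in the culture (26.7%) and 4 were higher. Genes on the Y chromosome made up 18 of the 27. They were 18 of 22 compared Y-linked probes (81.8%), with a median difference of -3.73 and a range from -5.13 to -0.15 when probes not well above background at day 7 are set at their limit. The grouping by Y chromosome was chosen after the values were seen. Several, such as Ssty2, belong to multi-copy families of the mouse Y long arm known for expression in developing sperm, and copies can be so alike that 1 probe may read several.

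The sequences around the start sites of Ssty2 and of 2 predicted genes show how alike some of these copies are. Which copies a probe reads cannot be told from them. RefSeq (GRCm38.p6) gave a promoter window of 300 bases around the start for 15 of the 18 genes. Of 14 windows set against that of Ssty2, 8 aligned over at least 200 bases, with 85.7% to 100% identity. The rest aligned over only 4 to 52 bases, too few to show likeness. Ssty2 lies on the minus strand at chrY:67048023-67048322, Gm20867 on the minus strand at chrY:77963155-77963454 and Gm20877 on the plus strand at chrY:17093629-17093928. Capitals mark bases that differ from the aligned Ssty2 base, 4 of 292 in Gm20867 (98.6% identity) and 17 of 298 in Gm20877 (94.3%). All are written 5′ to 3′ along the gene's strand.
Ssty2: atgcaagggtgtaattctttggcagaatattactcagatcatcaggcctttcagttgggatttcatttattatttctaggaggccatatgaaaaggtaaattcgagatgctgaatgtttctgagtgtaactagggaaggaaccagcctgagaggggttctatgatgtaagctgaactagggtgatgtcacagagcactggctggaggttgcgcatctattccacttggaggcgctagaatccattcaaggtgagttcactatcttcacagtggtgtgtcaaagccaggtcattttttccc
Gm20867: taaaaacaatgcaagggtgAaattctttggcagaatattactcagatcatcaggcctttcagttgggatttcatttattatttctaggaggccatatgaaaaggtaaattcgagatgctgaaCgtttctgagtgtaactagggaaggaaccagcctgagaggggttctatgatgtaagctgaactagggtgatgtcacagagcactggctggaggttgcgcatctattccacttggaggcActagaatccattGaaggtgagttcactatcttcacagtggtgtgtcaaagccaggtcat
Gm20877: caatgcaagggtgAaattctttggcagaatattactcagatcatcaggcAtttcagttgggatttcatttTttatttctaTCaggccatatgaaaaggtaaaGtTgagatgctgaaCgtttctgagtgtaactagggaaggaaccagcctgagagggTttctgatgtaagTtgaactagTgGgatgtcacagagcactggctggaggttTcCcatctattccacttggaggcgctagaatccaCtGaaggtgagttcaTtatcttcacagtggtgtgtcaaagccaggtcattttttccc

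Ssty2, a spermiogenesis gene of the Y long arm, read -4.76 at day 7, not well above background, against 0.81 and 1.31 in brown fat. That put the culture at least 35.0-fold lower. The predicted gene Gm20867 read -5.62 at day 7 and 0.57 and 1.23 in brown fat, a level at least 31.5-fold lower in the culture. Its window was identical to that of Gm20816, which read -4.91 at day 7 and 0.51 and 1.00 in brown fat, at least 28.5-fold lower. That the groups did not overlap for these 3 probes follows from the rule that called them.

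Gm20877, whose signal was still well above background at day 7, read -3.36, against 0.27 and 0.83 in brown fat, a difference of -3.91. Another 8 of the 15 symbol-bearing probes with the largest deficits were Y-linked copies. Gm20852, Gm20747, Gm20854, Gm21943 and Gm20865 were still well above background at day 7, with differences between -4.66 and -3.89. Gm20917, Gm20826 and Gm20815 were not, and were at least 23.9-, 20.7- and 11.9-fold lower. Ssty1, a gene related to Ssty2, lay just outside the rule at -1.39 at day 7 and 0.42 and 0.99 in brown fat, since the first tissue array was under 4-fold away. Gm20738, Gm20823 and H2al2b were the other Y-linked probes not called, with differences of -1.09, -0.82 and -0.15.

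The low level of the 18 Y-linked probes was shared by the whole culture series. The sex of the cells and of the mice was not given, so a difference in sex cannot be told apart from sample type. Their median was -4.11, -4.44, -4.02 and -3.82 at days 0, 3, 5 and 7. In the tissues it was 0.35 and 0.92 in brown fat, 1.63 and 2.03 in saline white fat, and 0.29 and 1.75 in CL-treated white fat. All 18 were well above background on each tissue array and 9 to 11 of them on each culture array. Day 5 set against saline white fat, which uses none of the arrays of the main comparison, was at least 4-fold lower for 19 of the 22. The same held for 13 of the 68 compared autosomal symbols and for 36 of all 101. That contrast also sets culture of 1 scan against tissue of the other. With normexp background correction, which draws dim probes together, 12 of the 22 compared Y-linked probes were at least 4-fold lower, and the difference for Ssty2 became -3.10.

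Of 11 compared X-linked symbols, 3 were lower, 2 higher and 6 neither. The lower ones, named after their values were seen, were Gm10488 (-3.38 at day 7, -0.90 and -0.77 in brown fat), Gm14819 (-3.40, against -0.91 and -0.93) and Gm10147 (-3.22, against -1.09 and -0.94). All are predicted genes, and Gm10147, at -2.21, had the smallest mean difference of the lower symbols. The share of X-linked symbols that were lower (27.3%) was near that of all symbols (26.7%).

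The chemokine CCL21, a ligand of CCR7 that attracts naive T cells and dendritic cells, is made by lymphatic endothelium and lymphoid stroma. It had 3 copies measured, all lower in the culture, beside 27 lower of the 101 symbols. Gm13304, a copy of the Ccl21 cluster on chromosome 4, read -0.39 at day 7, against 4.48 and 5.63 in brown fat, 43.6-fold lower. Ccl21b read -0.50 at day 7 and 4.26 and 5.58 in brown fat, 42.7-fold lower. Ccl21c read 1.69 at day 7 and 4.62 and 5.84 in brown fat, 11.7-fold lower. All 3 stayed at or below 1.69 on every culture array, and saline white fat lay above brown fat, between 7.48 and 7.83. These copies are near-identical, so the 3 probes may not be independent. Ccl19, Cxcl13, Ccr7 and Ccl21a could not be matched to a named probe.

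Of 12 genes of glycerol, glucose and carnitine metabolism, 5 were measured, of which 1 was lower and 1 higher, beside 27 lower and 4 higher of the 101 symbols. Amy2a5, a pancreatic amylase copy that cleaves starch, read -1.30 at day 7, against 3.46 and 3.43 in brown fat, 26.9-fold lower. Its level was -3.84, -1.32 and -0.83 at culture days 0, 3 and 5, so the later days lay above day 0 and below the tissue. Amylase genes are a cluster of similar copies, and the probe may read several. Tmlhe, the enzyme of the first step of carnitine synthesis, read 1.47 at day 7 and -1.33 and -1.82 in brown fat, 8.26-fold higher. It lay between 0.61 and 1.41 at days 0, 3 and 5 and at -2.24 and -2.42 in saline white fat, so every culture array was above every one of these tissue arrays.

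The other 3 metabolic genes were within 4-fold. Gk, glycerol kinase, which phosphorylates glycerol released by lipolysis and is known for its activity in brown fat, read -0.41 at day 7 and 0.59 and 0.80 in brown fat. G6pd2, a copy of the gene for the entry enzyme of the pentose phosphate pathway, read 3.01 at day 7 and 1.44 and 1.48 in brown fat. Gapdh, a glycolytic enzyme, read 9.82 at day 7 and 9.91 and 9.54 in brown fat, so its groups overlapped.

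**Figure D2:**
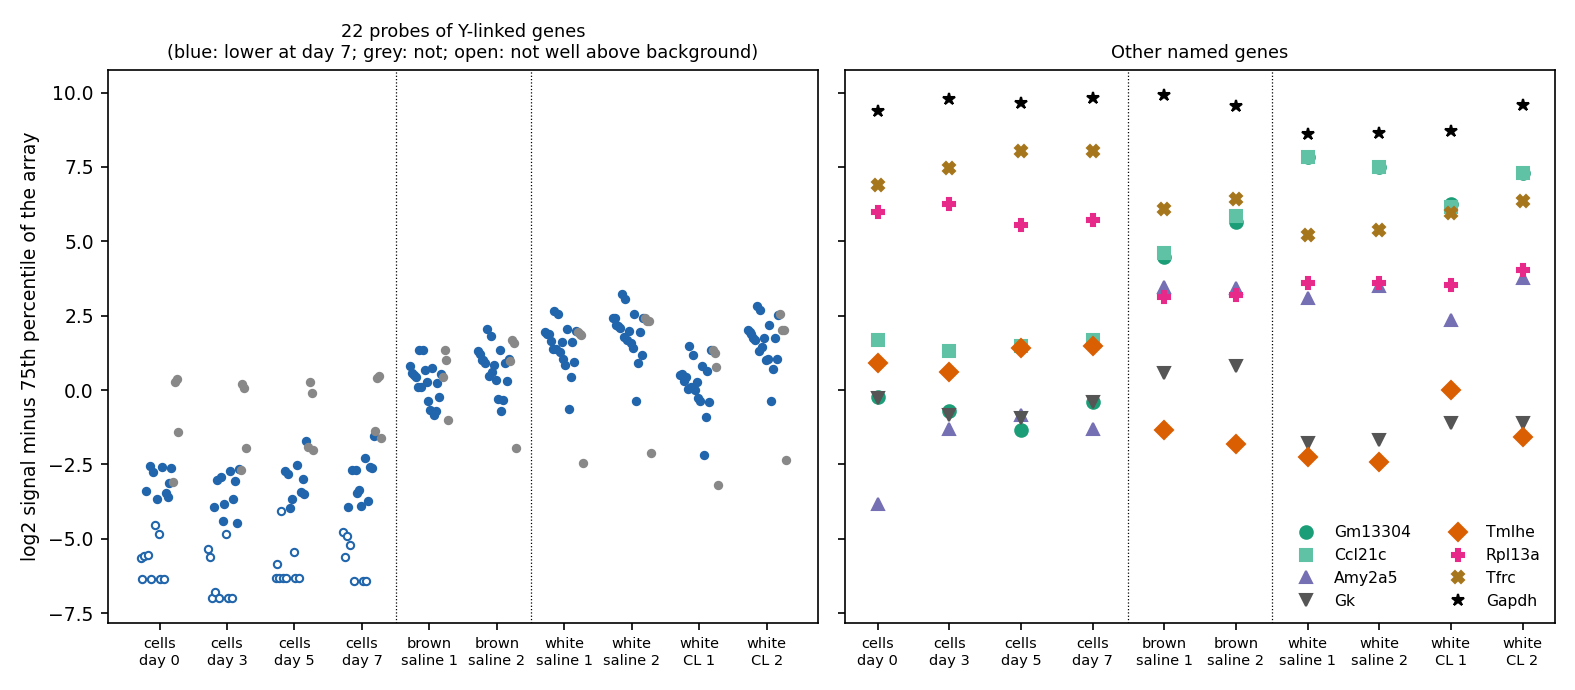
Levels (log2 signal minus the array's 75th percentile) on culture days 0 to 7, then brown fat, saline white fat and CL-treated white fat; left, 22 Y-linked probes, with blue for lower at day 7 and open symbols for not well above background; right, named genes on other chromosomes. The Y-linked median is -4.02 at day 5 and 1.63 and 2.03 in saline white fat, and Tmlhe is above all tissue arrays throughout the culture.

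Of 12 reference and cytoskeletal genes, 9 were measured, with 0 lower, 1 higher and 8 neither, beside 27 lower and 4 higher of the 101 symbols. Their median difference was 0.53, against 0.12 over all compared probes. Rpl13a, a protein of the large ribosomal subunit, was the one called: it read 5.70 at day 7 and 3.13 and 3.19 in brown fat, 5.83-fold higher. It has many processed copies in the mouse genome, which the probe may also read. Tfrc, the transferrin receptor that imports iron, read 8.04 at day 7 and 6.07 and 6.43 in brown fat, a difference of 1.78 that stayed under the threshold. Hprt, a purine salvage enzyme, read 7.33 at day 7 and 5.98 and 6.08 in brown fat. Differences for Ppia, B2m and Tbp were 0.35, 0.28 and 0.53. Actb read 7.01 at day 7 and 6.68 and 6.65 in brown fat, and its difference of 0.35 became -0.16 with quantile normalization.

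Spry3, an X-linked member of the Sprouty family of receptor tyrosine kinase inhibitors, read -0.41 at day 7 and -3.38 and -3.70 in brown fat. Only 1 of the brown fat arrays detected it, and its difference of 3.13 became 1.48 with normexp. Gm4312, a predicted gene, read 2.74 at day 7 and -0.67 and -0.05 in brown fat, 8.59-fold higher. Csprs lay just outside on the high side, at -0.39 at day 7 and -2.82 and -2.06 in brown fat. Vamp7, a SNARE protein of late endosomes, differed by 0.96, and 3 probes of Ppp2r3d, a regulatory subunit of protein phosphatase 2A, by 0.42, 0.44 and 0.77. On the low side, Fam205a2 and Vmn1r243, a vomeronasal receptor gene, complete the 6 autosomal symbols; both were named after their values were seen, at -5.30 (not well above background) and -3.87 at day 7, against brown fat means of -0.71 and -1.46.

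The classes of probe differed in how often they were called. RefSeq NM accessions were lower for 27 of 103 (26.2%) and higher for 5 (4.85%). Ensembl and UCSC transcripts were lower for 13 of 64 (20.3%) and 10 of 47 (21.3%). These 3 classes are small on this design, and the NM accessions hold the multi-copy genes described above, so they do not represent coding genes in general. Bare design numbers, which carry no gene name in the files, made up the bulk: 724 of 19427 lower (3.73%) and 629 higher (3.24%), and of 18997 in the block of design numbers that the authors' own values leave out, 768 lower (4.04%) and 810 higher (4.26%). Accessions of GenBank cDNAs and expressed sequence tags were lower for 35 of 803 (4.36%) and higher for 21 (2.62%).

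Of the probes of lincRNA loci, 91 of 3349 were lower (2.72%) and 54 higher (1.61%), with a median difference of 0.00. Probes named after ultraconserved elements, stretches shared without change among human, mouse and rat, were lower for 7 of 445 (1.57%) and higher for 3 (0.674%). The brown fat arrays differed from each other by 4-fold, in either direction, for 2.25% of that class. The share of probes called also varied with brightness. In 4 bins of equal size from the dimmest to the brightest compared probes, 0.749%, 4.26%, 5.32% and 5.17% were lower and 1.49%, 2.79%, 4.20% and 5.65% higher. Its part in the class shares was not tested.

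**Figure D3:**
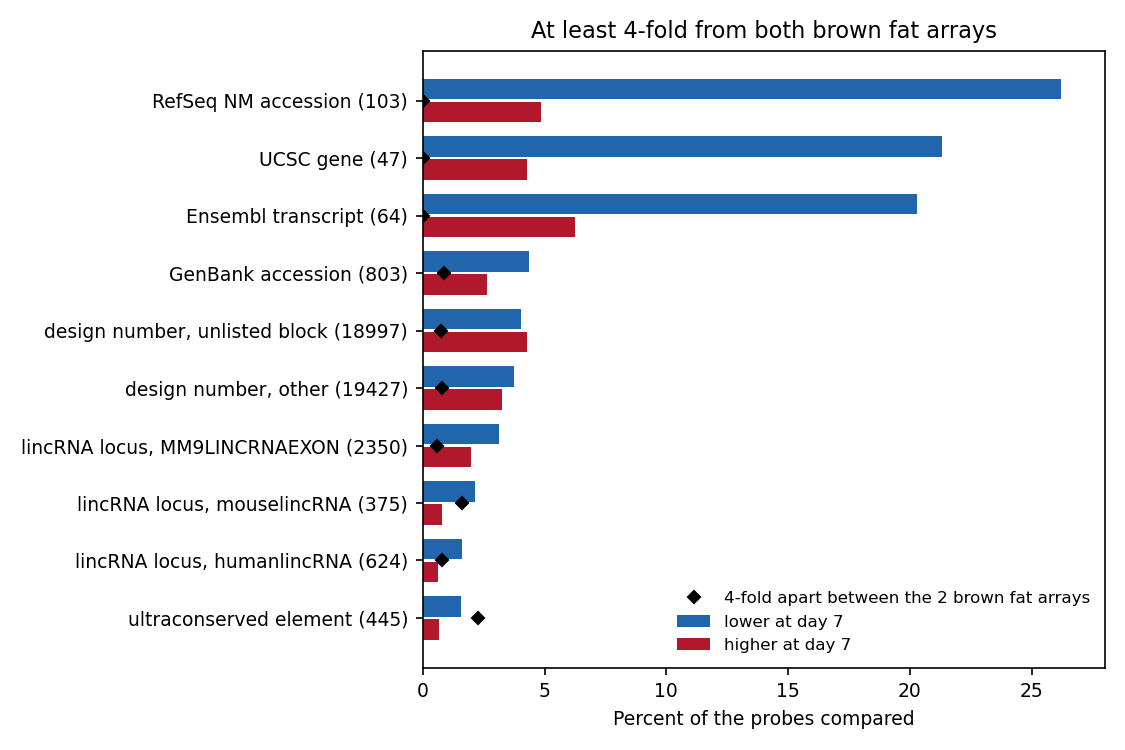
Percent of compared probes (number in brackets) at least 4-fold lower (blue) or higher (red) at day 7 than both brown fat arrays, by kind of probe name. Diamonds give the percent 4-fold apart, in either direction, between the 2 brown fat arrays. RefSeq NM accessions reach 26.2% lower. Ultraconserved elements reach 1.57% lower and 0.674% higher, with their diamond, which counts both directions, at 2.25%.

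The accession probes held differences far larger than those of the gene symbols. AV038163, an expressed sequence tag, read 0.34 at day 7, against 9.77 and 9.71 in brown fat, 676-fold lower, and lay at 9.29 and 9.14 in saline white fat and at or below 0.34 throughout the culture. AK007918, a full-length cDNA, read -2.32 at day 7 and 3.28 and 6.47 in brown fat, a 146-fold difference from a tissue mean whose 2 arrays were themselves 3.19 apart. AK007918 lay at 3.94 and 3.89 in saline white fat, so both probes were far above the culture there too.

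Other accession probes were low in both the culture and white fat. BC156060 read -4.33 at day 7, not well above background, against 2.23 and 2.96 in brown fat, at least 102-fold lower, and was at -5.65 and -5.25 in saline white fat. Its difference from brown fat became -4.61 with normexp. AK138758 read -0.25 at day 7 and 3.89 and 3.15 in brown fat, with -0.81 and -0.73 in saline white fat. CB523987 read 0.56 at day 7 and 4.20 and 3.72 in brown fat, with 0.49 and 1.09 in saline white fat. CO800403 and BB791535 were also below brown fat at day 7, with differences of -3.55 and -3.78, and saline white fat lay between the culture and brown fat. For these 5 probes the brown fat arrays stood above the day 7 array and above both saline white fat arrays.

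AV319250 was bright in all samples, with 4.81 at day 7, 8.34 and 8.40 in brown fat and 5.81 and 6.29 in saline white fat. AK132675, AA939626 and AK156239 were 16.8-, 12.7- and 10.9-fold lower at day 7 than brown fat and stood above the day 7 array in saline white fat. Among probes not well above background at day 7, AK029817, AK077064, BY365805 and AK029714 were at least 14.8-, 11.8-, 10.3- and 7.26-fold lower. With normexp background correction their differences became -2.40, -2.20, -1.84 and -1.81, so BY365805 and AK029714 fell within 4-fold.

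Among accessions higher in the culture, AK171173 read 4.46 at day 7 and -5.01 and -4.85 in brown fat, where neither array detected it, a level at least 245-fold higher. It was between 4.20 and 4.85 at every earlier culture day and at -2.74 and -2.50 in saline white fat. With normexp the difference of AK171173 from brown fat became 6.25. AK166279 read 1.80 at day 7 and -2.60 and -2.81 in brown fat, 22.6-fold higher, and was brightest at day 0, at 4.27. BX523225 read 5.27 at day 7 and 0.81 and 0.93 in brown fat, 21.2-fold higher, but only -0.90 at day 0, below the tissue. AI530503 had a like course, with -0.14 at day 0, 3.17 at day 7 and -0.32 and -0.29 in brown fat.

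CN710360 read 7.99 at day 7 and 5.48 and 5.54 in brown fat, and at day 0 it was at 5.13, below the tissue. AK188366 read 8.09 at day 7 and 5.59 and 5.70 in brown fat, and its day 0 level lay between those of the brown fat arrays. With quantile normalization the differences of CN710360 and AK188366 became 1.92 and 1.88, within 4-fold. AK196148 was 10.1-fold higher at day 7 than brown fat but lower than saline white fat, at 2.11 against 3.54 and 3.32. AK050117, CJ243031, AA667816 and CK128313 were 7.41-, 7.07-, 5.91- and 5.44-fold higher at day 7 than brown fat and lay above both brown fat arrays from day 0. AV295416, not well above background in brown fat, was at least 7.11-fold higher, but its difference became 1.52 with normexp, within 4-fold.

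The largest lincRNA difference was an excess. The minus-strand probe of locus EXON11355 read 6.87 at day 7, against -0.91 and -1.61 in brown fat, 280-fold higher, and 1.86, 5.71 and 6.46 at days 0, 3 and 5. The minus-strand probe of EXON12029 read 5.55 at day 7 and -0.55 and -0.21 in brown fat, 60.8-fold higher, and was already at 5.12 at day 0. EXON10136, EXON11418 and EXON10398 had probes 21.4-, 15.2- and 13.1-fold higher at day 7.

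The largest lincRNA deficit was at the plus-strand probe of EXON10825, which read 0.02 at day 7 and 6.04 and 5.07 in brown fat, 46.5-fold lower. Saline white fat lay at 0.28 and 0.17 there, near the culture. The minus-strand probe of EXON10271 read -0.53 at day 7 and 4.93 and 4.54 in brown fat, 38.5-fold lower, with 3.42 and 3.47 in saline white fat. EXON11061, EXON11689 and EXON11501 had probes 26.5-, 22.4- and 18.5-fold lower at day 7.

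The lincRNA probes come in pairs, one for each strand of a locus, and the calls were mostly on 1 strand. Of 1081 loci with both strands compared, 2 were lower on both, EXON10120 (-3.25 and -3.05) and EXON10825 (-5.54 and -2.41), and 0 were higher on both. At 91 loci 1 strand was called, with a median absolute difference of 2.89 on that strand and 0.53 on the other. The uncalled strand had the same sign at 51 of the 91, and 988 loci were called on neither. Of 105 ultraconserved elements with both strands compared, 4 were called on 1 strand.

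Among ultraconserved elements, uc.417+ was bright, at 2.82 at day 7 and 5.69 and 5.70 in brown fat, 7.34-fold lower. In saline white fat it lay at 2.16 and 2.82. The probes uc.237+ and uc.21- were 8.55- and 6.95-fold lower at dim levels, and normexp brought their differences to -1.75 and -1.55. The probe uc.97+ read 1.44 at day 7 and -1.85 and -1.66 in brown fat, 9.19-fold higher.

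**Figure D4:**
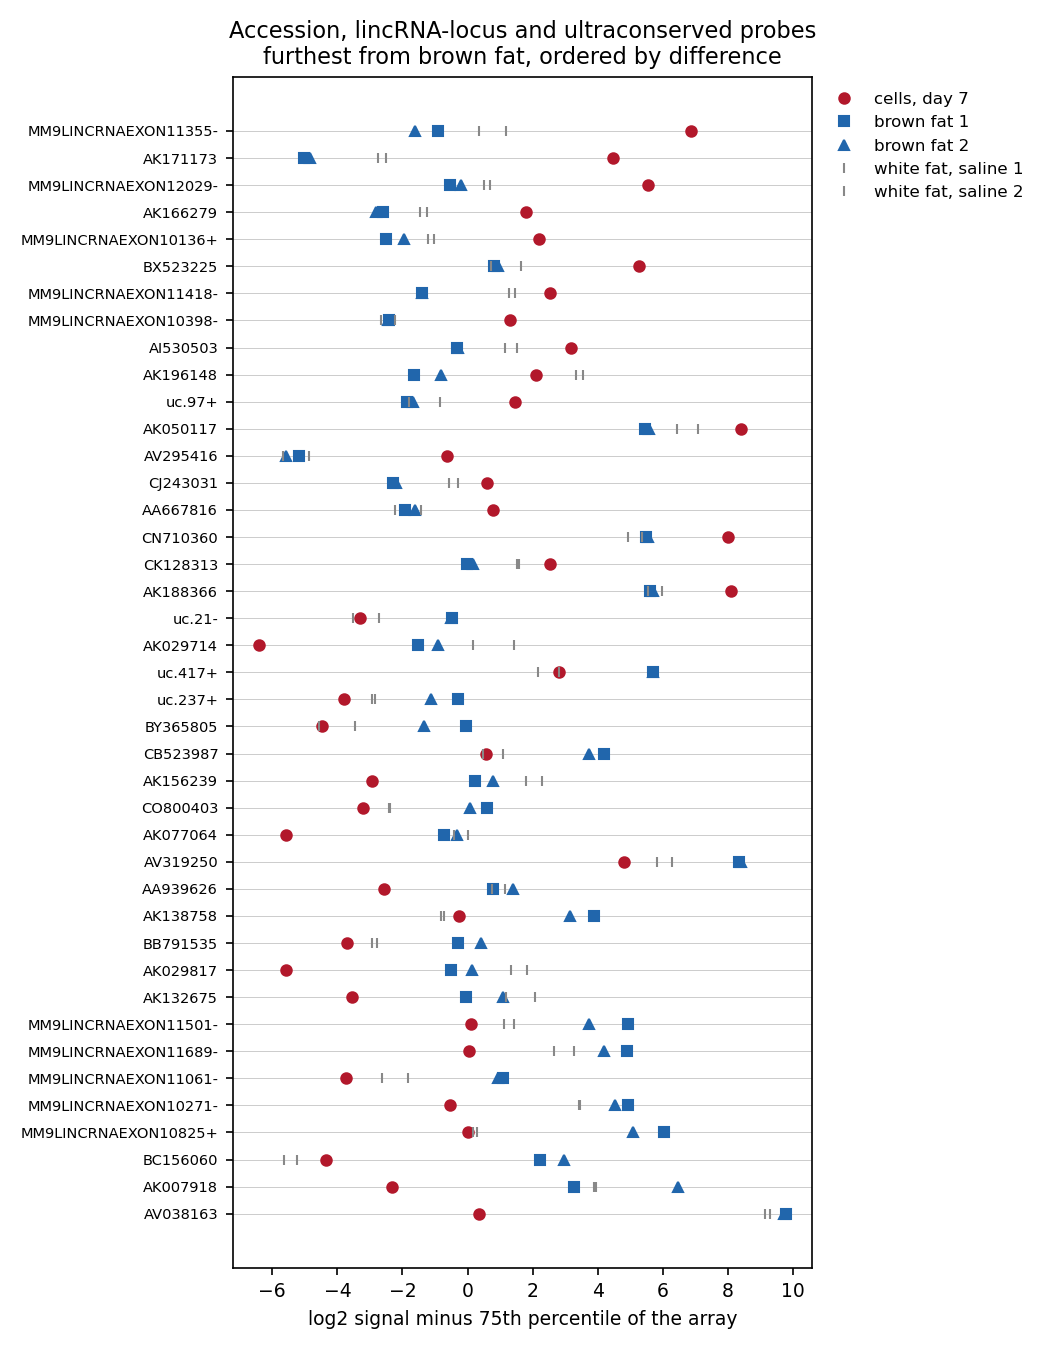
Levels (log2 signal minus the array's 75th percentile) of the named accession, lincRNA-locus and ultraconserved-element probes in day 7 cells (circles), the 2 brown fat arrays (squares and triangles) and saline white fat (ticks), ordered from the highest to the lowest difference. AK171173 and EXON11355- lead the probes higher in the culture, and AV038163 has the lowest difference, with white fat beside brown fat.

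The most extreme differences of all belonged to design numbers without a name. The probe ASMM9PARTA027888 read -3.04 at day 7, against 8.66 and 8.72 in brown fat, 3399-fold lower, and ASMM9PARTA032388 read -2.18 at day 7 and 9.04 and 9.20 in brown fat. Both were bright in saline white fat, at 8.81 and 8.93 for ASMM9PARTA027888, and not well above background at culture days 0, 3 and 5. ASMM9PARTA027154 read -3.47 at day 7 and 5.90 and 6.75 in brown fat. On the high side, ASMM9PARTA050538, ASMM9PARTA036532 and ASMM9PARTA021149 were 232-, 132- and 125-fold higher at day 7, and all were already above both brown fat arrays at day 0.

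The called probes were then followed on arrays that the rule did not use. For the lower probes, day 5 was at least 4-fold below both saline white fat arrays at 898 of 1633 compared there (55.0%, median difference -2.68), against 5.03% of all probes compared between day 5 and white fat. For the higher probes, 581 of 1517 were at least 4-fold above both white fat arrays (38.3%, median 1.71), against 2.53%. Both comparisons set a culture of the same scan against tissue of the other, and the culture arrays may share a source. Within the lincRNA loci the shares were unlike: 15 of 88 lower probes (17.0%, median -0.40) and 29 of 51 higher probes (56.9%, median 2.24).

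Between day 5 and day 0 of the culture, the same probes differed in smaller numbers. Day 5 was at least 4-fold below day 0 at 134 of 1397 lower probes (9.59%) and above it at 81 (5.80%), against 2.77% and 2.71% of all probes. Among the higher probes, 257 of 1518 were above day 0 (16.9%) and 84 below (5.53%). Median levels of the lower probes were -2.32, -2.53, -2.67 and -2.57 at days 0, 3, 5 and 7, and 0.89 and 0.98 in brown fat. Those of the higher probes were 1.95, 2.13, 2.30 and 2.42 over the same days, and -1.06 and -0.90 in brown fat. In saline white fat the lower probes had medians of 0.46 and 0.74, close to brown fat, and the higher probes 0.27 at both arrays, between brown fat and the culture.

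**Figure D5:**
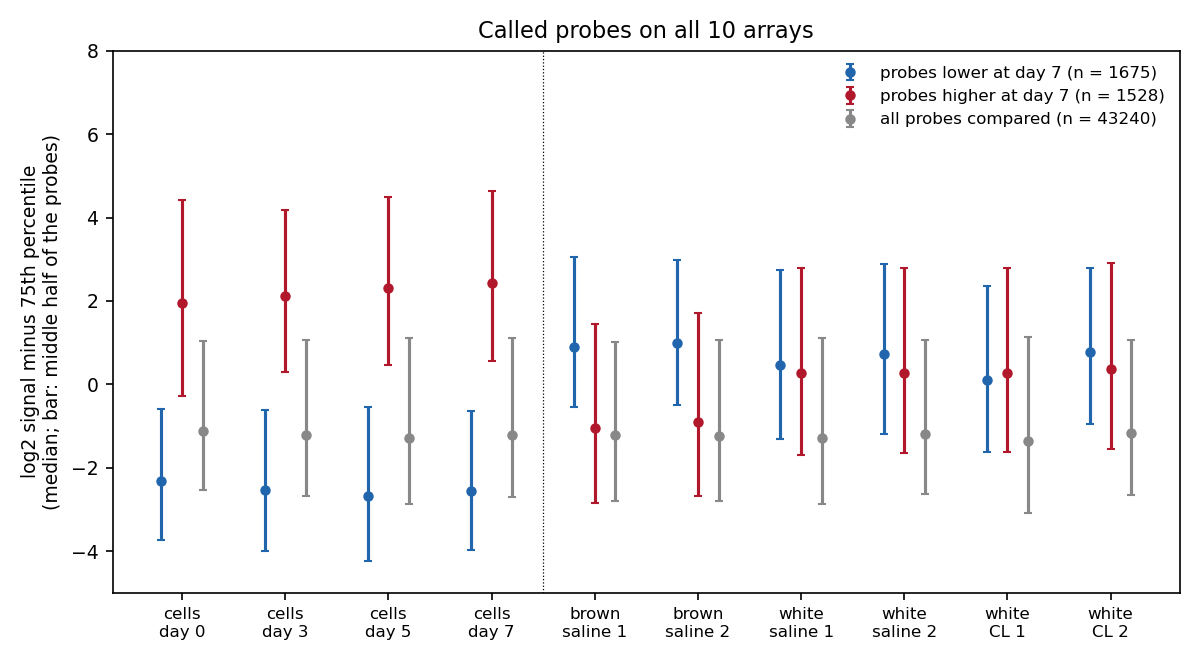
Median level (log2 signal minus the array's 75th percentile, bars for the interquartile range over probes) of the probes lower at day 7, the probes higher at day 7 and all probes compared, on each of the 10 arrays. The lower probes sit between -2.67 and -2.32 on the 4 culture arrays and the higher probes between 1.95 and 2.42; day 7 and brown fat values are those the rule used.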

How the data were processed

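The authors deposited 1-colour Agilent scanner output, in which each spot has a processed signal intensity, a median spot and background intensity and a flag for well above background, together with a table of log2 values for some of the probes. Per the file headers, signals were extracted with Feature Extraction 11.0.1.1; the submitters' processing notes name version 9.1. How the deposited log2 table was centred was not given in the sources used here. Here the processed intensity was averaged per probe, taken to log2 and reduced by its array's 75th percentile; control spots and spots with outlier flags were left out. A side not well above background on all its arrays was set, per array, at its own value or at the dimmest detected signal of that array, whichever was higher, and the fold is then given as "at least". Such a fold holds for this background treatment only and can be smaller under normexp.

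Named probes were, per direction, the 15 symbol-bearing probes that differ most, the 10 accession, 5 lincRNA, 3 ultraconserved and 3 design-number probes that differ most with all 3 arrays above background, the 5 accessions with the largest bound, and a fixed set of genes, 81 in all. Differences are day 7 minus the brown fat mean. Gene symbols came from RefSeq: 116 of 123 RefSeq-accession probes had 1 symbol. The probes, gene lists and rules were chosen with earlier results of these data known. The number of arrays limits the precision.

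Alternatives were normexp background correction (offset 50), 3 other scalings, the deposited table, other filters, 2- and 8-fold thresholds, leaving out each brown fat array, day 5 in place of day 7, and limma 3.58.1 on all 10 arrays in R 4.3.3. The limma fit assumes that the lone culture array varies like the tissue pairs. It was run on simulated data in which every array had the spread of the brown fat pair. That simulation could not test the assumption.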

Additional observations from a re-analysis of the deposited data

How the results depend on the processing

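Against 1675 probes lower and 1528 higher, normexp on the spot and local background signals gave 804 lower and 1073 higher. The deposited table, which lists 18917 of the compared probes, gave 695 and 454. It leaves out all 118 RefSeq NM accessions, so genes with those accessions, Y-linked or not, could not be checked there. A 2-fold threshold gave 4678 and 5807, and an 8-fold threshold 635 and 515. Leaving out 1 brown fat array gave 2311 and 2605 lower, the higher count being without replicate 2, and 1898 and 1935 higher. Requiring all 3 arrays well above background gave 1300 and 1128, and no filter 2398 and 1990. limma with Benjamini-Hochberg adjustment on all 10 arrays called 2007 lower (4.65%) and 2141 higher (4.96%) of 43148 tested. No setting called any probe in the opposite direction. That was fixed in advance for the other thresholds, the filters and the left-out brown fat arrays, which reuse the same values. Quantile normalization moved the share of lower among called probes to 58.3%, and scaling on probes detected on all 10 arrays to 66.0%, against 52.3%. Normexp moved it to 42.8%. For the 81 named probes, 768 of 991 alternative values moved by less than the spread between the brown fat arrays, 223 moved further, 64 of these under normexp, and 0 called values changed sign. The cause was not tested. No paired analysis was possible, because the labels link no culture array to a tissue sample and day 7 has 1 array. What limits the comparison is the single culture array, the separate scans, and the 29.8% of negative control spots called well above background at day 7, against 13.8% and 23.8% in brown fat.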
